A study of Mus musculus with 9 samples.

Results

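Non-homologous end joining genes were followed on 9 mouse arrays through the 13 probe sets annotated to exactly 1 of 10 genes of the pathway, out of 34945 probe sets with 1 gene symbol (18193 genes). They cover 9 of the 10 genes: Xrcc5, Prkdc, Lig4, Poll and Polm with 1 probe set each and Xrcc6, Xrcc4, Nhej1 and Paxx with 2 each. Dclre1c, the nuclease Artemis, had no such probe set and was not analysed here. The arrays hold RNA of cells that the submitters laser-captured as neural crest or its derivatives, 3 arrays per stage: embryos at E8.5, when the neural tube closes, dorsal root ganglia at E13.5, and adrenal medullae of adult mice at P90 (3 months). The labels used here name no strain, genotype, treatment or number of animals per capture, and call the 3 samples of a stage biological replicates. Stage and tissue change together, so each comparison is of both at once.

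Non-homologous end joining rejoins the ends of a broken chromosome without a matching template, and so also works in cells that no longer divide. The Ku ring, made of Xrcc6 (Ku70) and Xrcc5 (Ku80), slides onto each end and holds Prkdc, the catalytic subunit of DNA-dependent protein kinase. Artemis trims ends, the polymerases lambda (Poll) and mu (Polm) fill gaps, and the ligase Lig4, bound to its scaffold Xrcc4, seals them with help from the Xrcc4-like proteins Nhej1 (XLF) and Paxx. Mice without Lig4 or Xrcc4 lose newly formed neurons by cell death during embryonic development, so the pathway is known to matter in the developing nervous system.

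Among the end joining genes, calls went in both directions, at shares near or under those of all tested probe sets. Limma called 2 of 12 probe sets in each comparison with E8.5. Of all tested probe sets it called 15.0% at E13.5 and 20.8% at P90 against E8.5. The Paxx probe set 1455596_a_at rose at E13.5 and at P90 against E8.5, while the other Paxx probe set was not called. Xrcc5 fell at P90 against E8.5. Both of these P90 calls, of Paxx and Xrcc5, were lost when certain single E8.5 arrays were left out. A call for 1 of the 2 Nhej1 probe sets, lower at E13.5 against E8.5, supports no direction, because that probe set was tested only through its high E8.5 arrays. None of the probe sets was called between P90 and E13.5, where 7.48% of all tested were called. The other 9 tested probe sets were called in no comparison.

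Upstream sequences are shown for the Ku pair, whose tested probe sets had their highest stage means at E8.5, and for Paxx, whose 2 probe sets had their lowest there. They are the 250 bases before the gene start in RefSeq's promoter table (GRCm38.p6), written 5′ to 3′ on the gene's strand, at chr1:72307171-72307420 (+) for Xrcc5, chr15:82016119-82016368 (+) for Xrcc6 and chr2:25461095-25461344 (-) for Paxx. Capitals mark matches, on either strand, to the E2F-type motif TTTNNCGC, the CCAAT box CCAAT, the GC box GGGCGG and the E-box CACGTG.
Xrcc5: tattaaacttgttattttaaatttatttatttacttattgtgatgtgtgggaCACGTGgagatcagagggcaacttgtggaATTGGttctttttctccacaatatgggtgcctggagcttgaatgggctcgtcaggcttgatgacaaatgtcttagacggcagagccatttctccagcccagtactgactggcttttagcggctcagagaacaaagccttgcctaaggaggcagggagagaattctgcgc
Xrcc6: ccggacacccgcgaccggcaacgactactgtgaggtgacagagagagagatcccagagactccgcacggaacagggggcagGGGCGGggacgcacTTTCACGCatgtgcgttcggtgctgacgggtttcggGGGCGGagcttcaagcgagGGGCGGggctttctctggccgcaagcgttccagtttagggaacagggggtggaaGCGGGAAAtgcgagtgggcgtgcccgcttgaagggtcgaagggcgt
Paxx: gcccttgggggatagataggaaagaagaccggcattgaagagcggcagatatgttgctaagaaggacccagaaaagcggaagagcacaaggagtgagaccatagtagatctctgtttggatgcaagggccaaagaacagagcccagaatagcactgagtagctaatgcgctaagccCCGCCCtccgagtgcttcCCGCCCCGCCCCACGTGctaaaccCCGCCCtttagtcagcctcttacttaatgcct
The Xrcc5 window has 1 CCAAT box and 1 E-box, with no GC box and no E2F-type match. The Xrcc6 window has 2 E2F-type matches and 3 GC boxes, and the Paxx window has 4 GC boxes and 1 E-box, 2 of those GC boxes overlapping each other and the nearer of them lying next to the E-box. Of 32851 windows of this length in the table, 4.28% hold the E2F-type motif, 33.8% a CCAAT box, 32.7% a GC box and 6.02% an E-box. The G and C content is 44.8% for Xrcc5, 65.2% for Xrcc6 and 54.0% for Paxx, against a median of 52.4% over the table. The table has entries for 8 of the 10 genes. A match is a description of these letters and not a measured binding site. Prkdc, Lig4, Poll, Polm and Nhej1 1429098_s_at also had their highest stage means at E8.5. Both Xrcc4 probe sets also had their lowest there, so neither trait is particular to the genes shown.

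Values below are the deposited signals on a linear scale, and every change is that of log2(signal + 16), with its standard error (SE). Changes were tested with limma in 1 fit of the 9 arrays and called at a Benjamini-Hochberg adjusted p under 0.05 over the 24013 probe sets tested. A probe set was tested where its signal was above 26.1 on at least 3 arrays. This held for 12 of the 13 probe sets, and 1 of the 12, Nhej1 1429098_s_at, passed through its 3 E8.5 arrays alone. Median array signals were 38.3 to 48.2, 75th percentiles 151.7 to 214.2 and mean signals 173.1 (P90 replicate 3) to 326.6 (E13.5 replicate 1). Actb, whose control probe sets read both ends of the transcript, had a 3' minus 5' log2 difference of 0.85 to 6.69, largest on E13.5 replicate 2. This difference is used here as a sign of RNA integrity and is not a direct measure of it. Over the tested probe sets, arrays of a stage correlated at r = 0.803 to 0.983, and arrays of different stages at r = 0.696 to 0.855. A total of 8048 values (1.98%) were empty in the table, 1 of them for an end joining probe set. In tissue captures such as these, fewer cells of a type and less RNA per cell cannot be told apart.

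**Figure D1:**
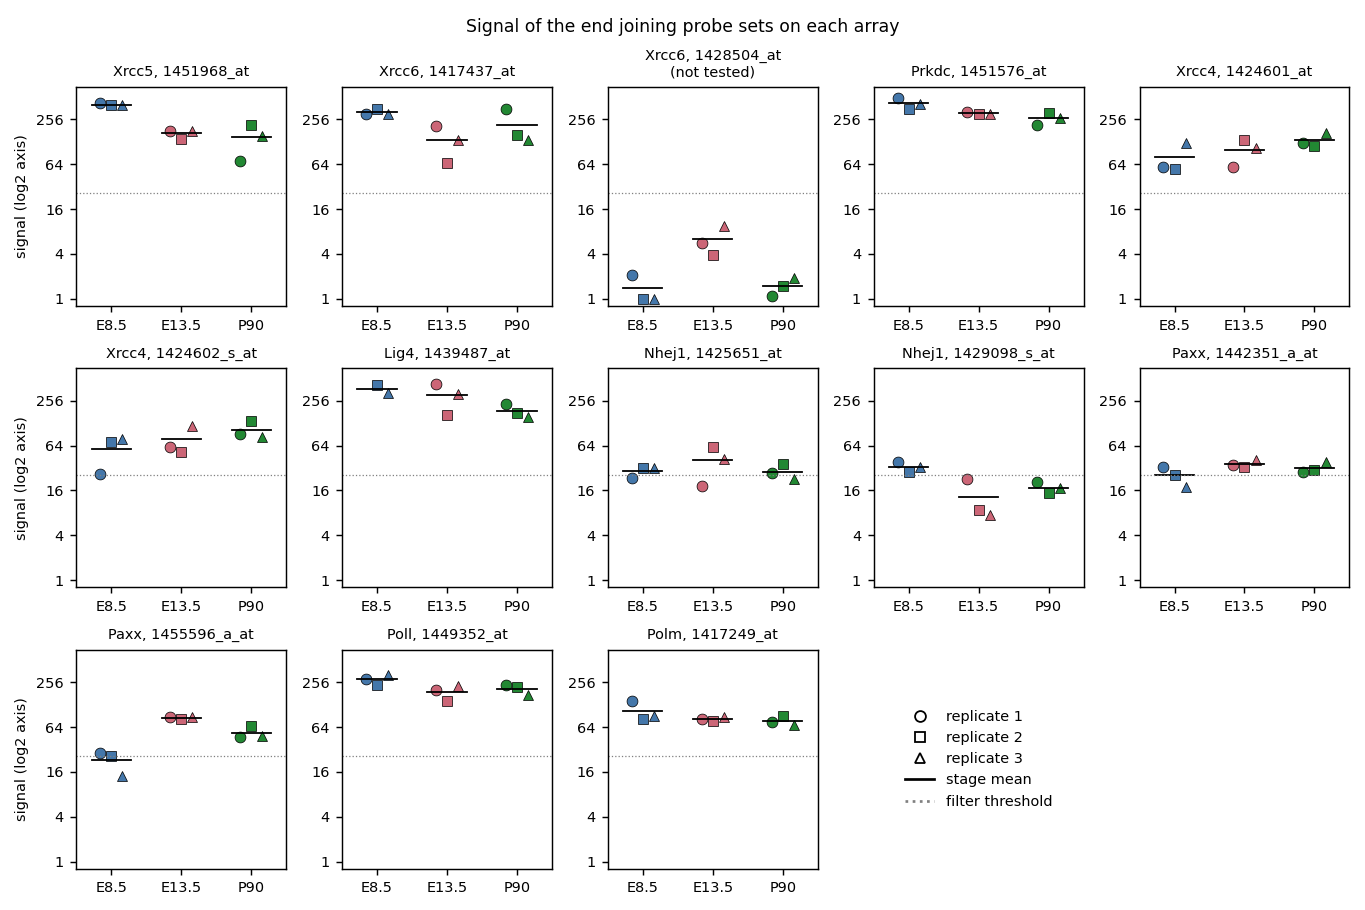
Signal (log2 axis) of the 13 end joining probe sets on each array at E8.5, E13.5 and P90, with circles, squares and triangles for replicates 1, 2 and 3, a black bar for the stage mean and a dotted line at the filter threshold of 26.1. Xrcc5 is highest on the E8.5 arrays (394 to 424), Paxx 1455596_a_at is lowest there (14.2 to 28.9), and the second Xrcc6 probe set stays under the threshold on all 9 arrays.

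Xrcc5 (Ku80, 1451968_at) had signals of 424, 394 and 396 at E8.5, of 176, 140.1 and 180.5 at E13.5, and of 71.3, 218 and 155 at P90. The E8.5 arrays lay close together and above all 6 later ones, while P90 replicate 1 had the lowest signal of the 9. At P90 it averaged 148 ± 73.6 and at E8.5 405 ± 17.1 (SD, n = 3 each), a fall (log2 -1.47 ± 0.39, limma adjusted p = 0.0202). The call was lost without any 1 of the 3 E8.5 arrays (limma adjusted p from 0.056 to 0.0668; over all 24 alternatives it was 0.00844 to 0.0668), with log2 changes of -1.44 to -1.49. At E13.5 the mean was 166 ± 22.2 against the same E8.5 mean (log2 -1.22 ± 0.39, 95% interval -2.07 to -0.37), which did not pass (limma adjusted p = 0.0579). It did pass in 9 of 24 alternatives, among them the fit of the 6 arrays compared (limma adjusted p = 0.0382, range 0.0204 to 0.162). Between P90 and E13.5 the stages overlapped (log2 -0.25 ± 0.39, limma adjusted p = 0.805).

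Xrcc6 (Ku70, 1417437_at), the partner of Xrcc5 in the ring, had signals of 299, 357 and 301 at E8.5, of 209, 67.0 and 136 at E13.5, and of 353, 156 and 135 at P90. All 3 E13.5 arrays were below the E8.5 arrays, but P90 replicate 1 was within the E8.5 range. The E13.5 mean was 137 ± 70.8 and the E8.5 mean 319 ± 33.0 (SD, n = 3 each), with a log2 change of -1.24 ± 0.45 (95% interval -2.23 to -0.24) that did not pass (limma adjusted p = 0.0959). Quantile normalization (0.0496), the Actb difference as a covariate (0.0235), both together (0.0082), and leaving out E13.5 replicate 1 (0.0481) or P90 replicate 1 (0.0493) brought this limma adjusted p under the threshold, over a range of 0.0082 to 0.334. The change was smaller without E13.5 replicate 2, the array with the lowest Xrcc6 signal and the largest Actb difference (log2 -0.85, limma adjusted p = 0.23), and without the 3 arrays of largest Actb difference in their stage (log2 -0.90, limma adjusted p = 0.334). The part of RNA integrity in it was not tested. At P90 the mean was 214 ± 120 (log2 -0.65 ± 0.45 against E8.5, limma adjusted p = 0.343; log2 0.58 ± 0.45 against E13.5, limma adjusted p = 0.559). The other Xrcc6 probe set, 1428504_at, gave 1 to 9.44 over the 9 arrays and was not tested, so 1 probe set carries the values for this gene.

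Prkdc (1451576_at), the kinase held by Ku, had signals of 499.5, 354 and 418 at E8.5, of 325, 301 and 299.8 at E13.5, and of 216, 308 and 267 at P90. The 6 later arrays were all below the 3 E8.5 arrays. Means were 264 ± 45.8 at P90 and 424 ± 72.8 at E8.5 (SD, n = 3 each), and the log2 change of -0.65 ± 0.33 (95% interval -1.37 to 0.06) did not pass (limma adjusted p = 0.185). Neither did E13.5, at 308 ± 14.0, against E8.5 (log2 -0.43 ± 0.33, limma adjusted p = 0.455), nor P90 against E13.5 (log2 -0.23 ± 0.33, limma adjusted p = 0.786).

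Lig4 (1439487_at), the ligase, had an empty value on E8.5 replicate 1, so E8.5 rests on 2 arrays in the fit. Its signals were 413 and 325 at E8.5, 437.5, 167 and 317.5 at E13.5, and 231, 178 and 156.5 at P90. The P90 arrays were below both E8.5 arrays, and the E13.5 arrays overlapped both other stages. The log2 change was -0.92 ± 0.46 at P90 against E8.5 (95% interval -1.94 to 0.10, limma adjusted p = 0.19), -0.58 ± 0.41 at P90 against E13.5 (limma adjusted p = 0.512) and -0.34 ± 0.46 at E13.5 against E8.5 (limma adjusted p = 0.706). None of these passed.

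Xrcc4, the scaffold of that ligase, had 2 probe sets that leaned the opposite way from Lig4, and neither was called. The first, 1424601_at, gave 57.8, 55.4 and 125 at E8.5, 58.4, 135 and 104 at E13.5, and 123.5, 113 and 168 at P90, with 1 E8.5 array inside the P90 range. The second, 1424602_s_at, gave 27.1, 70.7 and 77.7 at E8.5, 61.6, 52.4 and 119 at E13.5, and 91.1, 136 and 83.35 at P90, where all 3 arrays were above E8.5. Their log2 changes at P90 against E8.5 were close to each other, 0.72 ± 0.37 (95% interval -0.09 to 1.53, limma adjusted p = 0.198) and 0.73 ± 0.38 (95% interval -0.10 to 1.57, limma adjusted p = 0.201). At E13.5 against E8.5 they were 0.29 and 0.35 (limma adjusted p = 0.69 and 0.627), and at P90 against E13.5 0.43 and 0.39 (limma adjusted p = 0.603 and 0.66).

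Paxx, which binds Ku and stabilises the assembly at the break, was the gene with the smallest F-test p among the members. Its probe set 1455596_a_at gave 28.9, 26.1 and 14.2 at E8.5, 86.8, 81.6 and 88.8 at E13.5, and 47.7, 66.7 and 48.0 at P90. The 3 stages did not overlap: E13.5 was highest, P90 lay between and E8.5 was lowest. Means were 85.7 ± 3.71 at E13.5 and 23.1 ± 7.78 at E8.5 (SD, n = 3 each), a rise (log2 1.40 ± 0.24, limma adjusted p = 0.00321) that was called in all 24 alternatives (0.00173 to 0.0241). At P90, with 54.1 ± 10.9, it also rose against E8.5 (log2 0.85 ± 0.24, limma adjusted p = 0.0296). That second call was lost when replicate 2 or replicate 3 of E8.5 or of P90 was omitted (limma adjusted p from 0.0621 to 0.136), without the 3 arrays whose Actb difference was largest in their stage (0.0918), and when tested against a change of 1.2-fold (0.0855), over a range of 0.0187 to 0.136. P90 was below E13.5 by a log2 change of -0.55 ± 0.24 (95% interval -1.08 to -0.01), which did not pass after adjustment (limma adjusted p = 0.247).

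The other Paxx probe set, 1442351_a_at, differed from it. It gave 33.25, 25.8 and 17.6 at E8.5, 35.0, 33.4 and 40.5 at E13.5, and 28.3, 29.7 and 39.1 at P90, and the E8.5 and P90 arrays overlapped. The E13.5 arrays were above the E8.5 arrays, but the log2 change of 0.35 ± 0.22 was not called (95% interval -0.14 to 0.84, limma adjusted p = 0.363), and neither was that of P90 against E8.5 (log2 0.23 ± 0.22, limma adjusted p = 0.513). Within an array, 1455596_a_at minus 1442351_a_at was 0.96 ± 0.06 on the log2 scale at E13.5 and -0.09 ± 0.09 at E8.5 (SD, n = 3 each). The rise of Paxx therefore rests on 1 of its 2 probe sets, and which transcripts each one reads was not tested. All arrays of 1442351_a_at (17.6 to 40.5) lay near the filter threshold of 26.1, as did the E8.5 arrays of 1455596_a_at (14.2 to 28.9). What part such dim signals had in the difference between the probe sets was not tested.

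Nhej1 (XLF), another Xrcc4-like protein that bridges the ligase complexes, also had probe sets that disagreed, both near the filter threshold of 26.1. The probe set 1429098_s_at gave 38.9, 27.9 and 32.9 at E8.5, 22.9, 8.73 and 7.48 at E13.5, and 20.9, 14.6 and 17.1 at P90. All 6 later arrays were under the threshold, so this probe set could be tested only because it was high at E8.5, and its direction is fixed in part by that. With means of 13.1 ± 8.58 at E13.5 and 33.2 ± 5.49 at E8.5 (SD, n = 3 each) it fell (log2 -0.79 ± 0.24, limma adjusted p = 0.0456), and it was not called at P90 against E8.5 (log2 -0.55 ± 0.24, limma adjusted p = 0.128). The E13.5 call was lost in 9 of the 18 alternatives in which the probe set was tested, among them the omission of replicate 2 or of replicate 3 at E13.5 or P90 (limma adjusted p from 0.0629 to 0.171), over a range of 0.0128 to 0.171. The probe set 1425651_at gave 23.9, 32.1 and 32.05 at E8.5, 18.4, 62.0 and 41.9 at E13.5, and 27.1, 36.4 and 22.8 at P90, with the stages overlapping. Its log2 change was 0.25 ± 0.30 at E13.5 against E8.5 (limma adjusted p = 0.658) and -0.02 ± 0.30 at P90 against E8.5 (limma adjusted p = 0.966).

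Neither gap-filling polymerase was called in any comparison. Poll (1449352_at) gave 284, 238 and 323 at E8.5, 203, 142 and 232 at E13.5, and 234.5, 221 and 175 at P90. All 6 later arrays were below the E8.5 arrays, with log2 changes of -0.53 ± 0.33 at E13.5 (95% interval -1.25 to 0.19, limma adjusted p = 0.34) and -0.40 ± 0.33 at P90 (95% interval -1.11 to 0.32, limma adjusted p = 0.435). Polm (1417249_at) gave 145, 81.9 and 91.1 at E8.5, 81.5, 77.4 and 87.1 at E13.5, and 75.6, 89.6 and 69.2 at P90. Apart from E8.5 replicate 1 its arrays lay between 69.2 and 91.1, and its log2 changes against E8.5 were -0.28 ± 0.28 at E13.5 (limma adjusted p = 0.58) and -0.34 ± 0.28 at P90 (limma adjusted p = 0.419). The ratio of the highest to the lowest signal over the arrays was 2.09 for Polm, 2.28 for Poll and 2.31 for Prkdc and Paxx 1442351_a_at, against 5.96 for Xrcc5 and 6.25 for Paxx 1455596_a_at. Probe sets that were not called reached similar ratios, 5.33 for Xrcc6 1417437_at and 5.01 for Xrcc4 1424602_s_at, and Nhej1 1429098_s_at had 5.20. This ratio is on the signal scale with no pseudocount and is wider for dim probe sets.

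**Figure D2:**
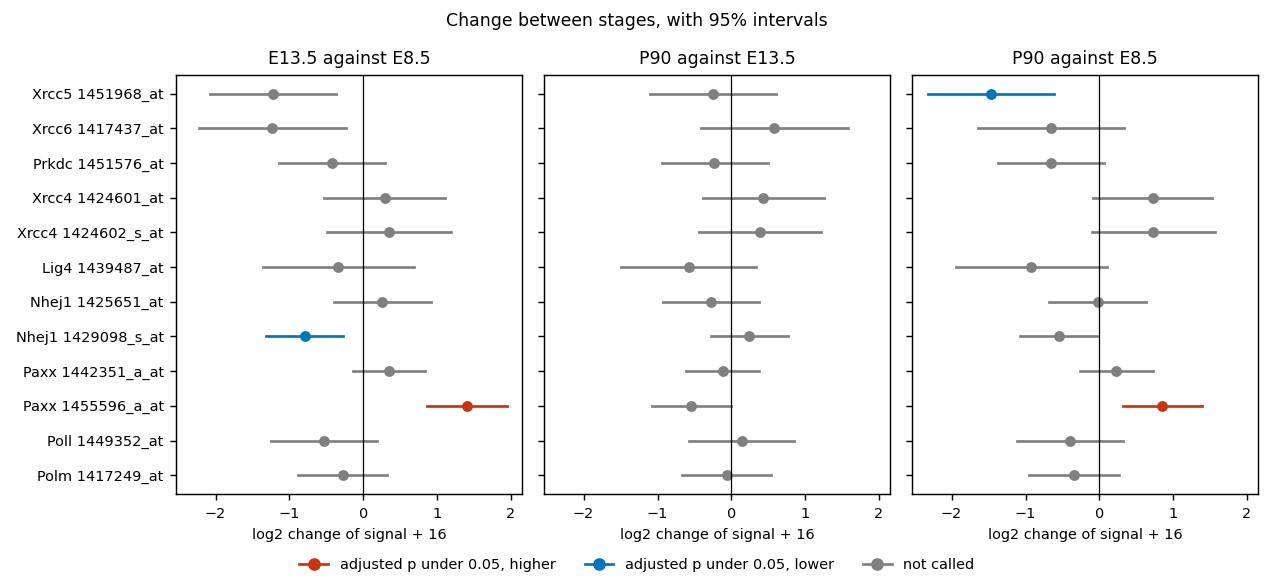
Log2 change of signal plus 16 (x axis) for the 12 tested end joining probe sets in the 3 comparisons, with 95% intervals. Red marks Paxx 1455596_a_at, called higher at E13.5 and P90 against E8.5, blue marks Nhej1 1429098_s_at at E13.5 and Xrcc5 at P90, called lower against E8.5, and grey marks probe sets not called.

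At E13.5 against E8.5, limma called 1 of the 12 probe sets higher and 1 lower, where 7.99% and 6.98% of all tested probe sets were called higher and lower, 15.0% together. The lower one is Nhej1 1429098_s_at, which had to be high at E8.5 to be tested, so nothing is read from its count. At P90 against E8.5 it again called 1 higher and 1 lower, against 9.57% and 11.2% of all tested, or 20.8% in either direction. Both comparisons share the E8.5 arrays. At P90 against E13.5 limma called 0 of 12 (0 higher and 1 lower at unadjusted p under 0.05), where 7.48% of all tested were called, 2.88% higher and 4.60% lower. The F-test over the 3 stages called 2 of 12, Paxx 1455596_a_at (adjusted p = 0.00511) and Xrcc5 (adjusted p = 0.0324), where it called 23.3% of all tested. The called shares of the 12 probe sets were near or under these backgrounds. Their median log2 change was -0.31 for E13.5 over E8.5, -0.09 for P90 over E13.5 and -0.37 for P90 over E8.5, where all tested probe sets had medians of -0.01, -0.02 and 0.00. Stages did not overlap for 5 probe sets lower and 2 higher in each of the comparisons with E8.5. In both, 1 of the 5 lower is Nhej1 1429098_s_at, whose direction is fixed in part by the filter. It also enters the medians above. At P90 another of the 5 is Lig4, with 2 E8.5 arrays. The count of 5 is therefore not read as a direction. Of all tested probe sets, 17.2% were lower and 17.2% higher without overlap at E13.5 against E8.5, and 23.2% lower and 19.8% higher at P90 against E8.5. At P90 against E13.5, Paxx 1455596_a_at alone did not overlap (lower), where 12.5% of all tested were lower and 10.0% higher without overlap.

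A difference between probe sets of 1 array cancels a scaling factor common to that array, apart from the pseudocount, but not a scaling that depends on intensity, such as quantile normalization, and how the deposited values were scaled is not known. The 4 differences shown were chosen after their values were seen, and were compared between stages with two-sided exact permutation tests, 12 comparisons in all. With 3 arrays per stage the smallest p such a test can give is 0.1 (0.171 after Benjamini-Hochberg adjustment over the 12), so none could pass. Paxx 1455596_a_at minus Xrcc5 was -0.90, -0.68 and -0.91 on the E13.5 arrays and -3.30, -3.28 and -3.77 on the E8.5 arrays, a difference of 2.62 between the means without overlap (exact permutation p = 0.1). At P90 it was -0.46, -1.50 and -1.42, also above E8.5 on all 3 arrays. Taken singly, Paxx 1455596_a_at was already higher and Xrcc5 already lower without overlap in both comparisons. The separation of their difference follows from that and is no further support. Prkdc minus Xrcc5 was 0.84 ± 0.17 at E13.5 and 0.05 ± 0.19 at E8.5 (SD, n = 3 each), higher on all 3 E13.5 arrays (exact permutation p = 0.1). Xrcc5 minus Xrcc6 was 0.35 ± 0.57 at E13.5 and 0.33 ± 0.18 at E8.5 (SD, n = 3 each; exact permutation p = 1). Its value on P90 replicate 1 was -2.08, where Xrcc5 had its lowest signal and Xrcc6 was within its E8.5 range, against 0.45 and 0.19 on P90 replicates 2 and 3.

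**Figure D3:**
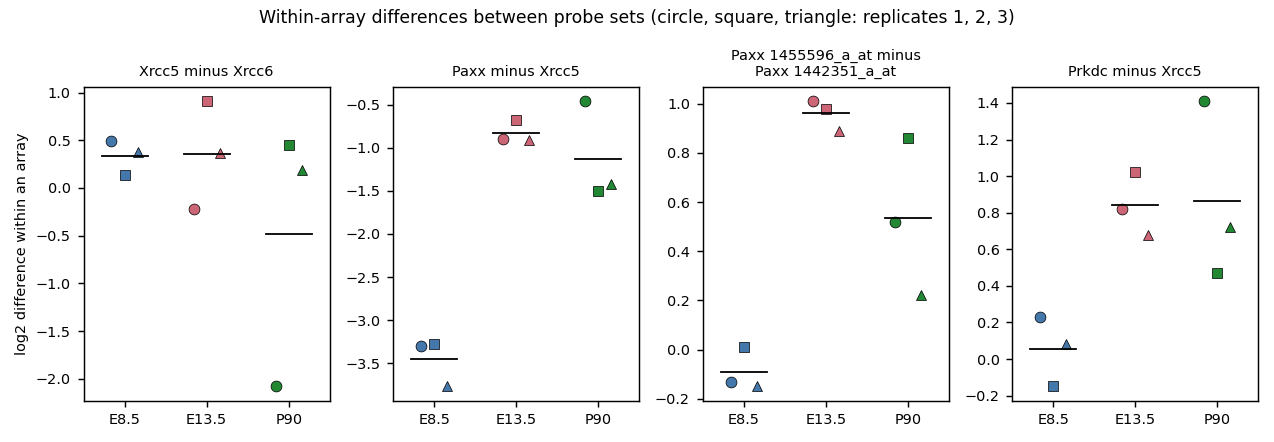
Log2 difference within an array (y axis, signal plus 16) between pairs of end joining probe sets at E8.5, E13.5 and P90, with a bar for the stage mean. Paxx minus Xrcc5 is -3.77 to -3.28 at E8.5 and -1.50 to -0.46 on the 6 later arrays, and P90 replicate 1 stands apart for Xrcc5 minus Xrcc6 at -2.08.

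Other genes that act at broken ends were read from the brightest tested probe set of each gene. In a fit of such probe sets alone, 16.5% of all 13748 genes were called at E13.5 against E8.5, 9.48% at P90 against E13.5 and 23.3% at P90 against E8.5, in either direction. The list calls are from the main fit, in which 6.98%, 4.60% and 11.2% of all tested probe sets were called lower in these comparisons. Of 9 tested genes of end processing, 2 fell and 7 were not called at E13.5 against E8.5, and 4 fell and 5 were not called at P90 against E8.5 (median log2 change -0.50 and -0.22). Mre11a, the nuclease of the complex that senses broken ends, fell at E13.5 (log2 -2.22 ± 0.26, limma adjusted p = 0.000392) and at P90 (log2 -2.73 ± 0.26, limma adjusted p = 5.23e-05). Nbn, a partner in that complex, fell at E13.5 (log2 -1.75 ± 0.38, limma adjusted p = 0.0112), and Tdp1, which removes trapped topoisomerase from DNA ends, at P90 (log2 -1.97 ± 0.47, limma adjusted p = 0.0125). Of these 9 genes, limma called 0 at P90 against E13.5 (0 at unadjusted p under 0.05).

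Of 12 tested genes of pathway choice and chromatin at breaks, 3 fell and 9 were not called in each of the comparisons with E8.5 (median log2 change -0.70 at E13.5 and -0.71 at P90). At P90 these calls were all lower, where 11.2% of all tested probe sets were called lower. The background of 23.3% counts either direction in the separate fit. Whether the list differs from these shares was not tested. The histone gene H2ax, whose product is phosphorylated around breaks, fell at E13.5 (log2 -2.28 ± 0.54, limma adjusted p = 0.0167) and P90 (log2 -3.22 ± 0.54, limma adjusted p = 0.00195). Rif1, which protects ends from resection, fell at E13.5 (log2 -2.27 ± 0.40, limma adjusted p = 0.00338), and the chromatin adaptor Paxip1 at P90 (log2 -2.44 ± 0.63, limma adjusted p = 0.0184). At P90 against E13.5 limma called 0 of the 12 (1 higher and 1 lower at unadjusted p under 0.05).

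Alternative end joining is a back-up route that uses short matching stretches. Of its 6 tested genes, 2 fell and 4 were not called at E13.5 against E8.5, and 3 fell and 3 were not called at P90 against E8.5. The median log2 changes were -0.72 and -1.21. Called in neither were Polq (log2 0.14 and 0.23), Lig3 (log2 0.16 and 0.19) and Fen1 (log2 -0.83 and -0.85). Lig1, a ligase that also joins replication fragments, fell at E13.5 (log2 -2.69 ± 0.55, limma adjusted p = 0.00821) and P90 (log2 -3.63 ± 0.55, limma adjusted p = 0.00108). The scaffold Xrcc1 fell at E13.5 (log2 -1.39 ± 0.38, limma adjusted p = 0.0327). Parp1, a sensor of strand breaks, was the 1 gene of the 6 called at P90 against E13.5, where it fell (log2 -1.59 ± 0.41, limma adjusted p = 0.04), and it also fell at P90 against E8.5 (log2 -2.20 ± 0.41, limma adjusted p = 0.00347). Of the V(D)J and class switch partners, 2 of 6 genes were tested: Hmgb2, a DNA-bending chromatin protein, fell at E13.5 (log2 -2.31 ± 0.49, limma adjusted p = 0.00914) and at P90 (log2 -4.16 ± 0.49, limma adjusted p = 0.000197) against E8.5, and between the later stages (log2 -1.85 ± 0.49, limma adjusted p = 0.0433). The lymphocyte polymerase Dntt, the other tested gene, was called in none (limma adjusted p = 0.797, 0.647 and 0.292).

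Markers of cycling cells were compared between the same stages. All 11 tested genes of that list fell at E13.5 and at P90 against E8.5, with median log2 changes of -2.62 and -5.13, and 8 of 11 fell at P90 against E13.5. Their summed signal was 19763 to 27454 at E8.5, 2548 to 6377 at E13.5 and 732 to 1764 at P90, and no gene of the list was at the floor of the scale on all arrays of a stage. The part of cycling cells in the lower Xrcc5 was not tested. At E13.5 the cycling genes of largest change were Cdc6, which loads the replicative helicase (log2 -3.92 ± 0.35, limma adjusted p = 0.000141), and the mitotic checkpoint kinase Bub1 (log2 -3.69 ± 0.40, limma adjusted p = 0.000241). At P90 they were Top2a (log2 -5.85 ± 0.46, limma adjusted p = 1.75e-05) and the helicase subunit Mcm5 (log2 -5.81 ± 0.45, limma adjusted p = 1.45e-05), both against E8.5. Between the later stages they were the proliferation marker Mki67 (log2 -3.64 ± 0.38, limma adjusted p = 0.000291) and the topoisomerase Top2a (log2 -3.06 ± 0.46, limma adjusted p = 0.00263). The end joining probe sets ranged over log2 changes of -1.24 to 1.40 at E13.5 against E8.5.

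**Figure D4:**
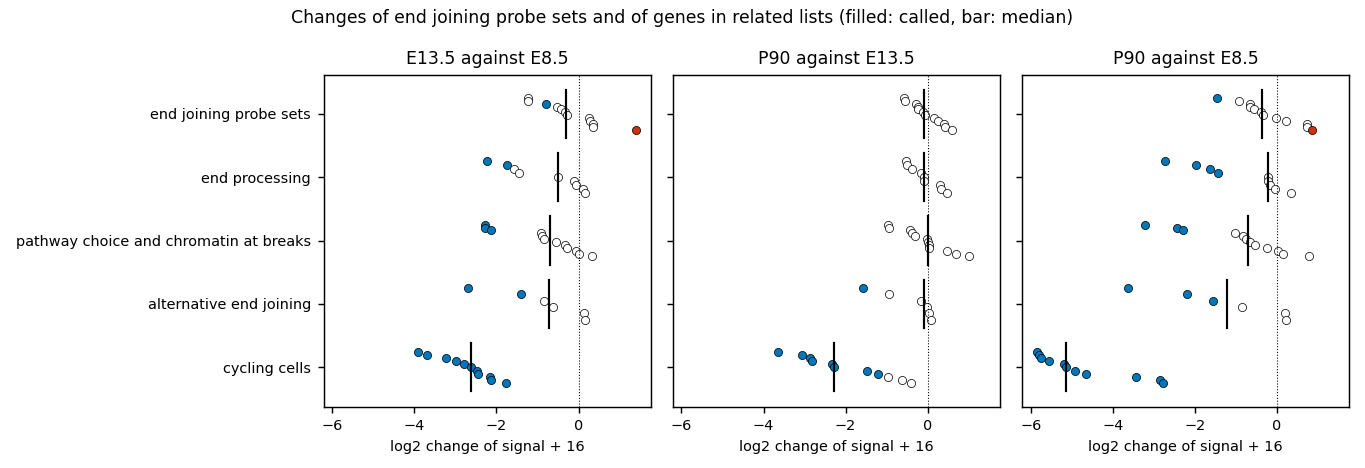
Log2 change of signal plus 16 (x axis) in the 3 comparisons for the 12 end joining probe sets and for the tested genes of the end processing, pathway choice, alternative end joining and cycling cell lists, with a bar at each median. Filled points passed the test (blue lower, red higher): the 11 cycling genes are all filled blue against E8.5, while 1 red and 1 blue point appear among the end joining probe sets.

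Markers of the labelled tissues were checked beside these results. The crest factor Pax3 averaged 1283 at E8.5, and of 6 crest markers 3 fell at E13.5 and 5 at P90 against E8.5. The 6 chromaffin markers had a summed signal of 338 to 380 at E8.5, 1862 to 4487 at E13.5 and 12106 to 27670 at P90, and all 6 rose at P90 in both comparisons. Among 3 tested sensory neuron markers, Isl1 and Runx1 rose at E13.5 against E8.5 (log2 6.39 and 6.0, limma adjusted p = 0.00185 and 9.72e-05). For that list 7 of 15 values were empty at E13.5, and for adrenal cortex 13 of 18 were empty at P90, so their sums cannot be read there. Of 2 tested cortex markers, Nr5a1 rose against E8.5 both at E13.5 (log2 2.0, limma adjusted p = 0.00272) and at P90 (log2 2.88, limma adjusted p = 0.000467), and the steroid enzyme gene Cyp11a1 was not called at either (log2 0.19 and 0.18, limma adjusted p = 0.784 and 0.745). Lymphocytes, which use end joining to build antigen receptors, had summed marker signals of 348 to 522 at E8.5, 233 to 443 at E13.5 and 227 to 491 at P90, and limma called 0 of 2 tested markers in each comparison (0 at unadjusted p under 0.05). Of 5 tested macrophage markers, 1 rose at E13.5 and 2 at P90 against E8.5. At E13.5 against E8.5, 2 of 2 glial, 1 of 3 endothelial, 2 of 2 red cell and 1 of 2 mesenchyme markers also rose. At P90 against E8.5, 1 of 2 red cell and 1 of 2 mesenchyme markers rose, and 0 of 2 glial and 0 of 3 endothelial markers were called by limma (0 at unadjusted p under 0.05). The part of these cell types in the changes of Paxx and Xrcc5 was not tested.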

How the data were processed

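RNA from laser-captured cells was measured on 9 Affymetrix mouse arrays, 1 per sample and 3 per stage. A PicoPure kit was used for extraction and 400 ng of total RNA per array went into biotinylated cRNA, per the labels' protocols. Values in the deposited table are linear intensities of probe sets, none below 1. The submitters' processing notes name MAS5, GCOS, RMA and GCRMA with no role, so how arrays were scaled is not given in the sources used here. Depth has no meaning for arrays, and their number limits the precision.

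Genes were taken from GEO's platform annotation: of 45101 probe sets, 34945 had 1 gene symbol, 932 several and 9160 none, with 64 controls apart. Entrez identifiers of 34741 matched the RefSeq gene table, which changed 0 symbols.

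From the deposited intensities, log2(signal + 16) was computed without further scaling, which understates changes of dim genes. Testing was limited to probe sets whose signal passed 26.1, the 40th percentile of the table, on at least 3 arrays, with at least 2 values per stage, which left 24013, of 13748 genes. The 3 stages were compared in 1 fit with 6 residual degrees of freedom (limma 3.58.1 in R 4.3.3, two-sided, with eBayes and its variance trend), adjusted over all tested probe sets in each comparison. Because the labels give no number of animals, p-values measure the spread between these samples.

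All probe sets of the members are described. In each list of related pathways or cycling cells the 2 genes with the largest change among called genes, in the direction of most calls, are named per comparison, from the brightest tested probe set. The members and lists were chosen with earlier results of these data known. Upstream sequences come from RefSeq's promoter table, whose strand was checked on 1627 overlapping pairs. Alternatives were quantile normalization, pseudocounts of 1 and 64, no filter or a 60th percentile filter, other variance models, a test against 1.2-fold, only the 6 arrays compared, 1 probe set per gene, no empty values, the Actb difference as a covariate, the replicate block and leaving out each array.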

Additional observations from a re-analysis of the deposited data

How the results depend on the processing

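With 3 arrays per stage and several probe sets near the filter threshold, calls depend on settings more than directions do. Of 825 values of single probe sets under the alternatives, 793 kept their side of the threshold, 18 lost a call, 14 gained one and 0 called values changed sign. Most of the 825 belong to changes not called in the main fit, which had no call to lose. Among the called changes, Nhej1 1429098_s_at at E13.5 lost its call in 9 of 18 alternatives. At P90, Paxx 1455596_a_at lost it in 6 of 24 and Xrcc5 in 3 of 24. The Paxx call at E13.5 was lost in 0 of 24. In 13 cases a change that was called neither way changed sign. Instead of 2 probe sets called at E13.5 against E8.5, 4 were called with quantile normalization, 4 with the Actb difference as a covariate and 4 with both together, the additional ones being Xrcc5 and Xrcc6. With a pseudocount of 64, 3 were called, Xrcc5 being added. With the 60th percentile filter, no variance trend, the brightest probe set per gene or only the 6 arrays compared, 2 were called, but Xrcc5 took the place of Nhej1 1429098_s_at, which did not enter the test with that filter or with the brightest probe set per gene. With a pseudocount of 1, with no filter, with a test against 1.2-fold, or without the 3 arrays of largest Actb difference in their stage, 1 was called, Paxx 1455596_a_at. Leaving out 1 array gave 1 to 4. At P90 against E8.5, 1 was called instead of 2 with the test against 1.2-fold and 1 without the arrays of largest Actb difference, and leaving out 1 array gave 0 to 2, the 0 being without E8.5 replicate 2 or 3. At P90 against E13.5 the count stayed at 0 in all alternatives run. The F-test called 4 instead of 2 with the Actb covariate, 4 with that and quantile normalization, 1 without the arrays of largest Actb difference, and 1 to 3 when 1 array was left out. Why the counts moved was not tested. Without E8.5 replicate 1, 2 or 3, Nhej1 1429098_s_at did not pass the filter and could not be tested. The alternatives on the Actb arrays and on both steps together were chosen after seeing the data.

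No pairing of the arrays by replicate number was seen, but deviations from means of 3 arrays cannot exclude one. Same-numbered arrays of different stages deviated together at r above 0.1 in 3 of 9 pairs (-0.358 to 0.424), against -0.406 to 0.439 for other pairs. With the replicate block, 2, 0 and 2 probe sets were called in the 3 comparisons, and the F-test called 1 instead of 2.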

Other observations

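The genes most like a member were looked up for the 3 member probe sets with the smallest F-test p, by Pearson's r of log2(signal + 16) over the 9 arrays, among about 22214 tested probe sets of other genes with no empty value. These arrays fall into 3 stages, so a high r mostly reflects the order of the stage means, and it is given with no p. Closest to Paxx 1455596_a_at were Ak5 (r = 0.969), Dgcr6 (r = 0.964) and Kidins220 (r = 0.962). Ak5, an adenylate kinase, had stage means of 59.5 (E8.5), 146 (E13.5) and 112 (P90). Closest to Xrcc5 were Rab3ip (r = 0.989), Nanp (r = 0.986) and Pkp2 (r = 0.975). Pkp2, a desmosome protein, had stage means of 459.9 (E8.5), 82.6 (E13.5) and 89.6 (P90). Closest to Nhej1 1429098_s_at were Rassf2 (r = 0.975), Ewsr1 (r = 0.961) and the nucleolar protein Fbl (r = 0.958), with stage means of 646 (E8.5), 141 (E13.5) and 136 (P90).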
